A study of Mus musculus with 6 samples.

Results

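The enzymes that oxidise, reduce, hydrolyse and conjugate drugs and reactive aldehydes were followed in MC3T3-E1 cells given sulfasalazine. They were taken by gene name as the aldehyde dehydrogenases (Aldh), aldo-keto reductases (Akr), carbonyl reductases (Cbr), cytochromes P450 (Cyp), UDP-glucuronosyltransferases (Ugt), sulfotransferases (Sult), quinone reductases (Nqo), epoxide hydrolases (Ephx), flavin mono-oxygenases (Fmo), carboxylesterases (Ces) and alcohol dehydrogenases (Adh). Cyp51, Cyp1a and Cyp1b genes, Aldh1l2 and Aldh18a1 were left out of this set. It held 89 of the 14003 genes of the deposited table, and 36 of the 10338 genes that were expressed highly enough to test. MC3T3-E1 is a mouse preosteoblast line, labelled as wild type (WT). Sulfasalazine is an anti-inflammatory drug and itself an azo compound, and the sulfasalazine group (n = 3 libraries) had received 200 µM of it for 24 h. The control group (n = 3 libraries) was left untreated, and the labels name no vehicle. Whether replicates were separate cultures is not stated in the labels. The p-values therefore reflect only how far these libraries scatter, which may be technical.

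Detoxification is usually described in steps. Phase I enzymes add or expose a reactive group: P450s and flavin mono-oxygenases insert oxygen, aldehyde dehydrogenases turn aldehydes into acids, and aldo-keto, carbonyl and quinone reductases spend NADPH or related cofactors on carbonyls and quinones. Phase II enzymes then attach glucuronic acid or sulfate, which makes most products more water-soluble. Many members also have housekeeping substrates, such as amino acid breakdown products, retinoids, steroids and vitamin D.

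The sequenced reads assigned to genes numbered 19247900 to 21579133 in the sulfasalazine libraries and 15980935 to 20828706 in the control libraries, as recovered from the deposited values. Groups separated along the first principal component, with 88.6% of the variance of the expressed genes. Control replicate 3, the shallowest library, lay nearer to the sulfasalazine libraries on it (score -42.6) than control replicates 1 and 2 did (-65.3 and -63.2). Of the osteoblast markers, Runx2 was expressed (18.1 ± 1.57 FPKM with sulfasalazine, 23.5 ± 2.2 FPKM in controls), as was Spp1 (947 ± 104 FPKM with sulfasalazine, 1868 ± 309 FPKM in controls). Col1a1 (0.461 ± 0.251 FPKM with sulfasalazine, 0.280 ± 0.324 FPKM in controls), Sp7 and Bglap were at or near 0. FPKM scales fragments to gene length and to the size of the library, so levels can be set side by side between genes. All values are means ± SD over the 3 libraries of a group unless each library is given.

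Sulfasalazine-treated cells had more RNA for most of the expressed enzymes. Of the 36 tested members, 25 were called higher, 4 were called lower and 7 were not called at an adjusted p under 0.05 (limma on log2(FPKM + 1), Benjamini-Hochberg adjustment over all 10338 tested genes). Over all tested genes, 37.2% were called higher and 29.3% lower, 66.5% in either direction. The 25 members called higher made up 69.4% of those tested. Of the 36 tested members, 21 were called higher with a log2 fold change of at least 1. Of all 10338 tested genes, 19.2% were. These 21 members include Aldh3b1, Aldh5a1, Cbr3 and Fmo1. The median log2 fold change, sulfasalazine over control, was 1.2 across the 36 members and 0.08 across all tested genes. All 3 sulfasalazine libraries lay above all 3 controls for 25 members and below them for 5, where 40.3% and 31.1% of all tested genes did so. Aldh3b1, Aldh5a1, Cbr3 and Fmo1 passed the expression filter only through the sulfasalazine libraries, and Akr1b7 only through the controls, so these 5 had to differ. Of the other 31, 21 were called higher, 3 lower and 7 were not called. In these bulk samples, fewer cells of a type and less RNA per cell cannot be told apart.

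**Figure D1:**
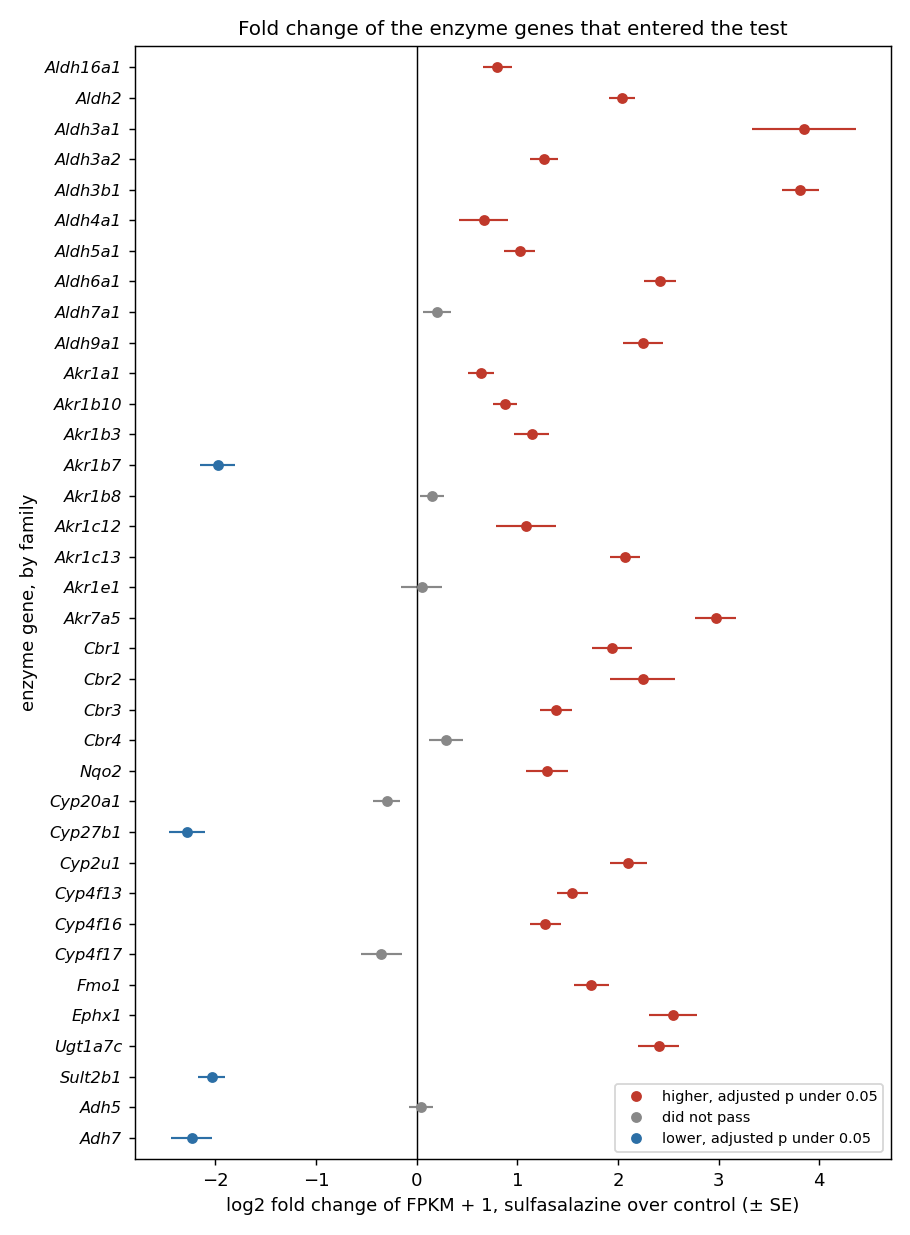
Log2 fold change of log2(FPKM + 1), sulfasalazine over control, for the 36 tested members, with bars of 1 SE and members coloured by call. Points to the right of 0 were higher with sulfasalazine, from 0.04 for Adh5 to 3.85 for Aldh3a1, and the points to the left of 0 reach -2.28 for Cyp27b1.

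Summed over all 89 members, the level was 4376, 4770 and 3607 FPKM in the sulfasalazine libraries, against 1287, 1291 and 1419 FPKM in the controls. The ratio of the means was 3.19. The members took 0.603%, 0.653% and 0.511% of all FPKM in the sulfasalazine libraries, and 0.195%, 0.189% and 0.200% in the controls. No sulfasalazine library came near the control range, and the third was the lowest of its group. Aldh2, Ephx1 and Akr1a1 alone accounted for 71.4% to 73.4% of the summed level with sulfasalazine and for 64.6% to 65.4% in controls. Aldh2 was the most abundant of these enzymes in every library. Ephx1 stood above Akr1a1 in all 3 sulfasalazine libraries and below it in all 3 controls.

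**Figure D2:**
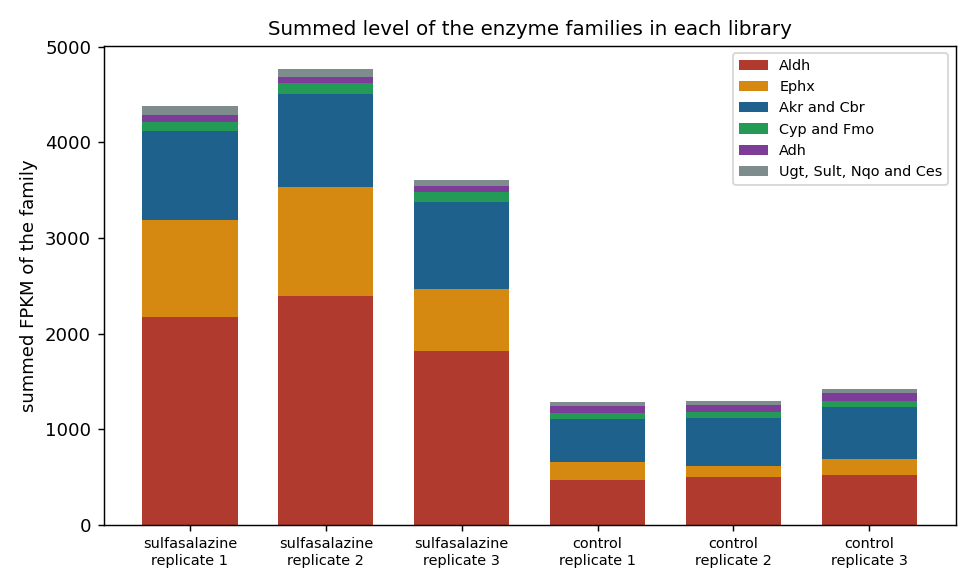
Stacked bars of summed FPKM by enzyme family, 1 bar per library, sulfasalazine libraries left of controls. The Aldh sum averaged 2128 FPKM with sulfasalazine and 497 FPKM in controls, and the Ephx sum 934 FPKM with sulfasalazine and 157 FPKM in controls.

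The aldehyde dehydrogenases, which oxidise aldehydes to acids with NAD or NADP, made up the largest share of the summed level in the sulfasalazine libraries. Of 17 Aldh genes in the table, 10 were tested, of which 9 were higher and 1 was not called. Over all tested genes, 37.2% were higher and 29.3% lower. The 9 include Aldh3b1 and Aldh5a1, which passed the filter only through the sulfasalazine libraries and so had to differ. The summed Aldh level was 2128 ± 287 FPKM with sulfasalazine and 497 ± 24.4 FPKM in controls.

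Aldh2, the mitochondrial enzyme that clears acetaldehyde and lipid-derived aldehydes, lies at chr5:121566027-121593824 (GRCm38). Its level was 1678, 1854 and 1504 FPKM in the sulfasalazine libraries, against 383, 410 and 425 FPKM in the controls. The groups were far apart and each was tight. The log2 fold change was 2.04 (SE 0.13, adjusted p = 1.0e-05), a 4.14-fold higher mean.

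Aldh3a1, a cytosolic enzyme for lipid-peroxidation aldehydes that is best known as an abundant protein of the cornea, lies at chr11:61207537-61218421. Its log2 fold change was 3.85 (SE 0.52, adjusted p = 3.2e-04), and the ratio of its means was 15.6. Its level was 279, 326 and 99.6 FPKM in the sulfasalazine libraries, against 20.7, 18.2 and 6.44 FPKM in the controls. The groups did not overlap but replicate 3 was the lowest library of each. Leaving out sulfasalazine replicate 3 gave a log2 fold change of 4.38, leaving out control replicate 3 gave 3.36, and leaving out both gave 3.89. Its neighbour Aldh3a2, 5.00 kb away, encodes the fatty aldehyde dehydrogenase of the endoplasmic reticulum. Aldh3a2 was at 43.9, 47.1 and 43.4 FPKM with sulfasalazine, against 17.4, 15.8 and 21.4 FPKM in controls (log2 fold change 1.26, SE 0.14, adjusted p = 1.1e-04). Control replicate 3 was the highest control for Aldh3a2, whereas it was the lowest for Aldh3a1.

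Aldh3b1, which also acts on lipid-peroxidation aldehydes, was barely present in controls. Its level was 17.3, 19.4 and 23.1 FPKM with sulfasalazine, against 0.303, 0.391 and 0.786 FPKM in controls. The log2 fold change of 3.81 (SE 0.18, adjusted p = 4.5e-06) understates the 40.4-fold ratio of the means, because 1 FPKM was added before taking logs. Of its 50-base words, 8.97% also occur in transcripts of other genes, mainly Aldh3b3, so a small part of its reads could belong there.

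The remaining Aldh genes serve mostly metabolic pathways. Aldh9a1, which takes part in carnitine synthesis, was at 74.8, 67.5 and 76.9 FPKM with sulfasalazine, against 10.7, 14.7 and 19.6 FPKM in controls (log2 fold change 2.25, SE 0.20, adjusted p = 3.9e-05). Aldh6a1, the methylmalonate semialdehyde dehydrogenase of valine breakdown, was at 21.2, 18.4 and 16.5 FPKM with sulfasalazine, against 3.06, 2.49 and 2.53 FPKM in controls (log2 fold change 2.41, SE 0.16, adjusted p = 1.1e-05). Both genes had well-separated groups, although 18.6% of the exonic bases of Aldh6a1 lie in other genes, mainly Bbof1. Aldh16a1 was at 20.4, 19.1 and 19.8 FPKM with sulfasalazine, against 9.41, 11.1 and 12.4 FPKM in controls (log2 fold change 0.80, SE 0.14, adjusted p = 0.0015). Aldh5a1, the succinic semialdehyde dehydrogenase of GABA breakdown, was low, at 2.16 ± 0.238 FPKM with sulfasalazine and 0.563 ± 0.228 FPKM in controls (log2 fold change 1.02, adjusted p = 5.6e-04). Of the exonic bases of Aldh5a1, 17.7% lie in other genes, mainly 4932702P03Rik. All 4 of these Aldh genes had separate groups, with log2 fold changes of 0.80 to 2.41.

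Aldh4a1, an enzyme of proline breakdown, was the least secure of the Aldh calls. It was at 10.8, 11.1 and 10.5 FPKM with sulfasalazine, against 8.27, 4.03 and 7.90 FPKM in controls (log2 fold change 0.66, SE 0.24, adjusted p = 0.039). Control replicate 2 was the low library, and without it the log2 fold change was 0.38 with an adjusted p of 0.068. The call was also lost when any 1 sulfasalazine library was left out (adjusted p = 0.078 to 0.096), with other scalings or without the expression filter. Of the exonic bases of Aldh4a1, 32.5% lie in other genes, mainly Gm21969. Aldh7a1, which acts in lysine breakdown, averaged 24.4 ± 0.141 FPKM with sulfasalazine and 21.3 ± 3.34 FPKM in controls and was not called (adjusted p = 0.23). Its groups overlapped because of control replicate 3, and without that library it was called higher with a log2 fold change of 0.32 (adjusted p = 0.018). Aldh1a1, Aldh1a2, Aldh1a3, Aldh1a7, Aldh1b1, Aldh1l1 and Aldh8a1 were not tested. They stayed under 1 FPKM in every library, and the retinaldehyde dehydrogenases Aldh1a1, Aldh1a2 and Aldh1a3 had at most 4 reads in any library.

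**Figure D3:**
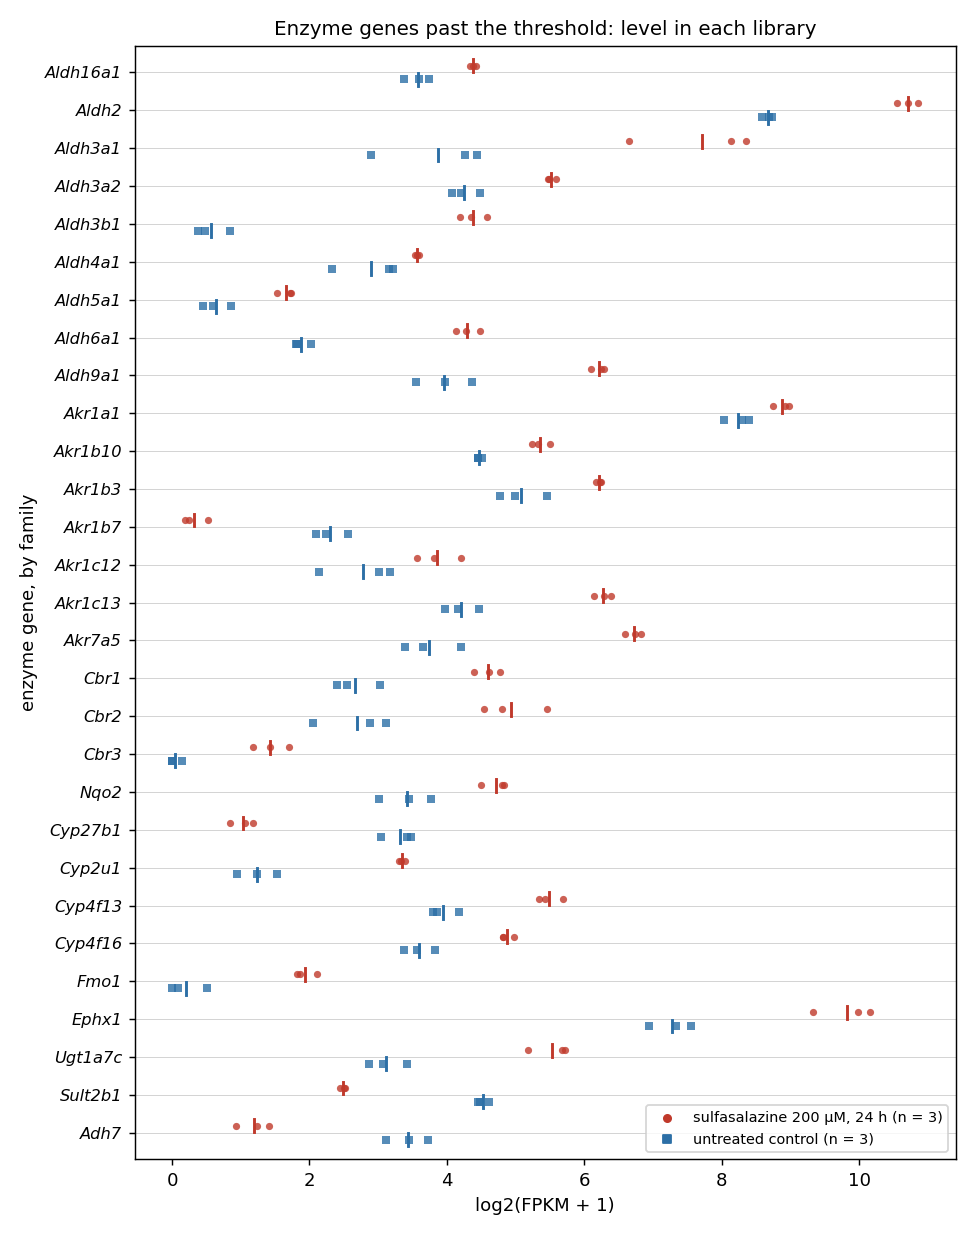
log2(FPKM + 1) of the 29 called members in each of the 6 libraries, with sulfasalazine libraries as circles above controls as squares and a vertical line at each group mean of the log2 values. For Aldh3a1 the sulfasalazine libraries sit between 99.6 and 326 FPKM, above controls at 6.44 to 20.7 FPKM.

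The aldo-keto reductases reduce aldehydes and ketones to alcohols with NADPH. Of 11 Akr genes, 9 were tested, of which 6 were higher, 1 was lower and 2 were not called. Shares over all tested genes were 37.2% higher and 29.3% lower. The summed Akr level was 877 ± 34.4 FPKM with sulfasalazine and 487 ± 49.8 FPKM in controls, a ratio of 1.8 where the Aldh sums gave 4.28. Each sum was mostly 1 gene, so these ratios do not describe every family member. Akr1a1 averaged 472 FPKM with sulfasalazine and 303 FPKM in controls, and Aldh2 1679 FPKM with sulfasalazine and 406 FPKM in controls. Among Akr genes called higher, Akr7a5, the mouse aflatoxin aldehyde reductase (chr4:139310744-139318426), had the largest log2 fold change. It was at 106, 112 and 95.5 FPKM with sulfasalazine, against 9.44, 11.5 and 17.5 FPKM in controls (log2 fold change 2.97, SE 0.20, adjusted p = 1.4e-05). Akr1a1, the general aldehyde reductase, was the most abundant Akr gene, at 484, 503 and 428 FPKM with sulfasalazine and 261, 312 and 336 FPKM in controls. Its groups did not overlap, but the difference was modest (log2 fold change 0.64, SE 0.13, adjusted p = 0.0029).

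The Akr1b genes lie side by side on chromosome 6 in the order Akr1b3, Akr1b8, Akr1b10 and Akr1b7, with gaps of 36.6, 15.8 and 15.4 kb, and they did not move together. Akr1b3, the aldose reductase that makes sorbitol from glucose, was at 74.1, 74.7 and 71.1 FPKM with sulfasalazine, against 26.4, 30.7 and 42.9 FPKM in controls (log2 fold change 1.14, SE 0.17, adjusted p = 5.6e-04). Akr1b8 averaged 85.6 ± 4.51 FPKM with sulfasalazine and 77.2 ± 9.73 FPKM in controls, with overlapping groups, and was not called (log2 fold change 0.15, SE 0.12, adjusted p = 0.28). Without control replicate 3 it was called higher, at 0.25 (adjusted p = 0.036). Akr1b10 was at 36.6, 38.9 and 44.2 FPKM with sulfasalazine, against 21.9, 20.8 and 20.9 FPKM in controls (log2 fold change 0.88, SE 0.12, adjusted p = 3.4e-04). Akr1b7, known in mouse as a vas deferens and adrenal protein, went the other way. It fell to 0.256 ± 0.158 FPKM with sulfasalazine, against 3.97 ± 0.844 FPKM in controls (log2 fold change -1.98, SE 0.17, adjusted p = 3.7e-05). It passed the filter through the controls alone, and 27.2% of its exonic bases lie in Gm13857.

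The Akr1c genes form a second group on chromosome 13, together with the more distant Akr1e1. Akr1c13, a member of the hydroxysteroid dehydrogenase branch, was at 69.4, 76.9 and 82.7 FPKM with sulfasalazine, against 21, 17 and 14.7 FPKM in controls (log2 fold change 2.07, SE 0.15, adjusted p = 1.7e-05). Akr1c12, of the same branch and 62.6 kb away, was at 10.8, 13.1 and 17.5 FPKM with sulfasalazine, against 7.09, 8.04 and 3.39 FPKM in controls (log2 fold change 1.09, SE 0.30, adjusted p = 0.011). The groups of both genes were separate, but 28.6% of the 50-base words of Akr1c12 and 24.2% of those of Akr1c13 occur in other genes. For each of them the main sharing gene is the other, so the split of reads between them is uncertain. For Akr1c12 the third libraries widened the gap, and without replicate 3 of both groups its log2 fold change was 0.59 (adjusted p = 0.0070). Akr1e1, a reductase of 1,5-anhydrofructose 311 kb from Akr1c12, averaged 11.4 ± 3.24 FPKM with sulfasalazine and 10.8 ± 0.945 FPKM in controls and was not called (adjusted p = 0.84). Akr1c14 and Akr1c18, steroid reductases, were too low to test. Akr1c14 had 2, 11 and 10 reads in the sulfasalazine libraries and was listed at 0 in every control. Akr1c18 was at 0.235, 0.680 and 0.748 FPKM with sulfasalazine and 1.17, 0.937 and 0.159 FPKM in controls, with overlapping groups.

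**Figure D4:**
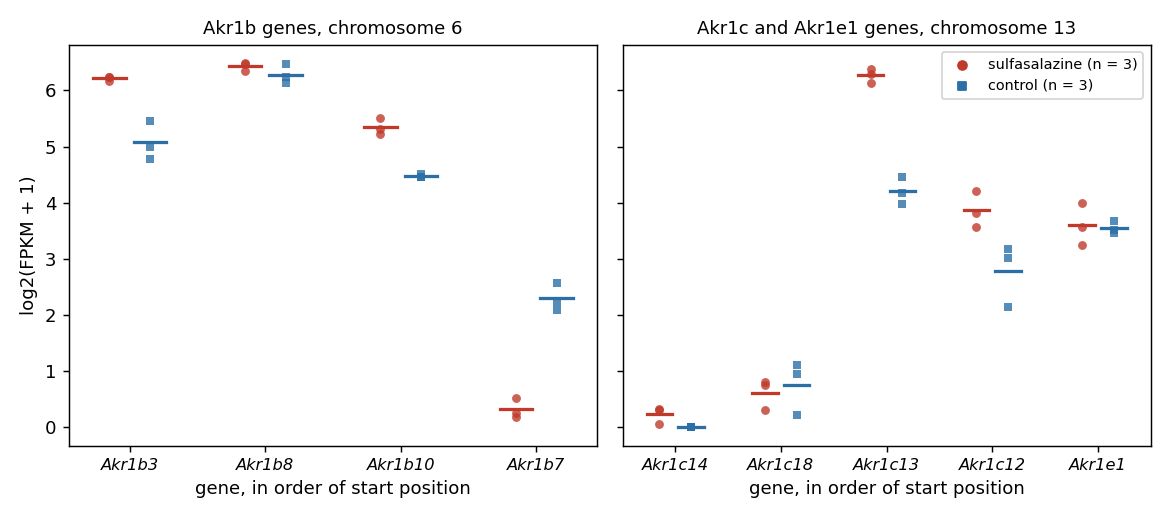
log2(FPKM + 1) in each library of the Akr1b genes (left panel) and of the Akr1c genes with Akr1e1 (right panel), in order of start position, with a horizontal line at each group mean of the log2 values. Sulfasalazine libraries lie above controls for Akr1b3, Akr1b10, Akr1c13 and Akr1c12 and below them for Akr1b7, and the groups overlap for Akr1b8, Akr1c18 and Akr1e1.

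The Akr1b genes, although adjacent, changed differently, and Aldh9a1 holds a match to the antioxidant response element core. The promoters of Akr1b8, Akr1b10, Akr1b7 and Aldh9a1 are therefore printed. Each runs 5′ to 3′ from 250 bases before to 50 bases after the RefSeq start on GRCm38.p6, plus strand, at chr1:167349741-167350040 for Aldh9a1, chr6:34353896-34354195 for Akr1b8, chr6:34383997-34384296 for Akr1b10 and chr6:34412112-34412411 for Akr1b7. Capitals mark the antioxidant response element core TGACNNNGC, which Nrf2-type factors bind, and the xenobiotic response element core GCGTG, which the aryl hydrocarbon receptor binds, on either strand.
Aldh9a1: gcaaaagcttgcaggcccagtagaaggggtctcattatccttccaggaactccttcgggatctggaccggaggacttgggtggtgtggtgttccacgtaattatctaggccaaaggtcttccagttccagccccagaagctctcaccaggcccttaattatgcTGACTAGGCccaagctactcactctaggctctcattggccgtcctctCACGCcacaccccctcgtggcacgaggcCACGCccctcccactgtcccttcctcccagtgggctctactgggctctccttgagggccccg
Akr1b8: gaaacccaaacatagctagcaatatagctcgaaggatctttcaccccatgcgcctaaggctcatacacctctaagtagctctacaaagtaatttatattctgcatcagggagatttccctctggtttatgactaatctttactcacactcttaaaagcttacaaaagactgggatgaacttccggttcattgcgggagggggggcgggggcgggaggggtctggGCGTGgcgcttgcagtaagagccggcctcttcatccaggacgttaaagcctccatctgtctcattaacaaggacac
Akr1b10: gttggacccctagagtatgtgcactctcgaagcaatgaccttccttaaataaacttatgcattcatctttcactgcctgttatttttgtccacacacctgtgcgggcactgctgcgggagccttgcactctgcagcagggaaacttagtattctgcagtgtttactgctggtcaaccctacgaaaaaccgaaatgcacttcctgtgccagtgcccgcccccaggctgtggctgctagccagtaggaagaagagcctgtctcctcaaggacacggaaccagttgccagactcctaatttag
Akr1b7: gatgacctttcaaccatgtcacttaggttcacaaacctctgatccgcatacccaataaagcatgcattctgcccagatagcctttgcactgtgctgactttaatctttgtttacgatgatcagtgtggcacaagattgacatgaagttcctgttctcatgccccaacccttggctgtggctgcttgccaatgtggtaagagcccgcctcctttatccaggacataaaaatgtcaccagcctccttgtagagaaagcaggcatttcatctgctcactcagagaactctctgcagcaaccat
In Aldh9a1 the antioxidant core begins 87 bases before the start, and a pair of xenobiotic cores lies between it and the start, none overlapping another. Akr1b8, which was not called, holds 1 xenobiotic core, and neither Akr1b10 nor Akr1b7 holds a match to either motif. RefSeq windows were found for 72 of the 89 members, some with more than 1 start, and for 20 of the 25 called higher. Aldh2, Aldh3a1, Akr1b3, Cyp2u1 and Fmo1 were called higher but had no window, so the shares below do not cover them. Among those 20 genes, 1 of 22 windows (4.55%) held the antioxidant core, against 12.4% of all 32851 windows in the table, and 9 of 22 (40.9%) held the xenobiotic core, against 32.4% of all. Among members called lower, 0 of 5 windows held the antioxidant core and 3 of 5 the xenobiotic core. A match of these letters is a description of the window and not a binding site.

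The carbonyl reductases are short-chain enzymes that reduce quinones and ketone drugs. All 4 Cbr genes were tested, with 3 higher and 1 not called, where 37.2% of all tested genes were higher. Of the 3, Cbr3 passed the filter only through the sulfasalazine libraries and so had to differ. Cbr1, the main cytosolic form, was at 23.5, 26.4 and 20 FPKM with sulfasalazine, against 4.85, 4.27 and 7.12 FPKM in controls (log2 fold change 1.94, SE 0.20, adjusted p = 8.0e-05). Cbr2, described in mouse lung, was at 22.2, 26.9 and 42.9 FPKM with sulfasalazine, against 3.16, 7.66 and 6.37 FPKM in controls (log2 fold change 2.25, SE 0.32, adjusted p = 4.4e-04). Groups of both were separate, and Cbr2 had the wider spread, with 12.1% of its 50-base words shared with other genes, mainly Gm11771. Cbr3, 72.7 kb from Cbr1, had 26, 43 and 31 reads in the sulfasalazine libraries, against 0, 2 and 0 in the controls. Its levels were 1.25, 2.25 and 1.68 FPKM with sulfasalazine, against 0, 0.10 and 0 FPKM in controls (log2 fold change 1.38, SE 0.16, adjusted p = 1.4e-04). Cbr3 was thus nearly undetected without the drug. Cbr4, part of a mitochondrial fatty acid synthesis enzyme, was at 3.30 ± 0.366 FPKM with sulfasalazine and 2.53 ± 0.557 FPKM in controls and was not called (adjusted p = 0.15).

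Of the quinone reductases, Nqo2, which uses dihydronicotinamide riboside, was called higher. It was at 27.4, 26.9 and 21.6 FPKM with sulfasalazine, against 12.7, 9.96 and 7.04 FPKM in controls (log2 fold change 1.30, SE 0.21, adjusted p = 8.7e-04). Replicate 3 was again the lowest of each group without overlap between them. Of the exonic bases of Nqo2, 18.9% lie in other genes, mainly Serpinb6a. Nqo1, the NADPH-using enzyme that is a classic Nrf2 target, was scarcely expressed and was not tested. It had 14, 30 and 25 reads with sulfasalazine and 7, 4 and 6 reads in controls, or 0.407, 0.946 and 0.816 FPKM with sulfasalazine and 0.225, 0.121 and 0.236 FPKM in controls. The groups did not overlap, and the authors' deposited table gives a log2 fold change of 1.8 with an adjusted p of 0.0021. Even with sulfasalazine, Nqo1 stayed under 1 FPKM, far below Nqo2.

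Of 29 P450 genes in the table only 6 were expressed highly enough to test, of which 3 were higher, 1 was lower and 2 were not called. Shares over all tested genes were 37.2% higher and 29.3% lower, and 6 genes are too few to compare closely with them. The summed Cyp level was 102 ± 5.28 FPKM with sulfasalazine and 61.0 ± 1.53 FPKM in controls. Those called higher belong to groups that act on fatty acids. Cyp4f13 (chr17:32924688-32947402) was at 42.0, 50.6 and 39.4 FPKM with sulfasalazine, against 17, 13.4 and 12.8 FPKM in controls (log2 fold change 1.55, SE 0.16, adjusted p = 6.9e-05). Cyp4f16 was at 27.3, 27.1 and 30.4 FPKM with sulfasalazine, against 10.9, 9.43 and 13.1 FPKM in controls (log2 fold change 1.28, SE 0.15, adjusted p = 1.7e-04). Of the 50-base words of Cyp4f16, 17.4% occur in other genes, mainly Cyp4f37. Cyp2u1, a hydroxylase of long-chain fatty acids, was at 9.05, 9.48 and 8.84 FPKM with sulfasalazine, against 1.35, 0.919 and 1.88 FPKM in controls (log2 fold change 2.10, SE 0.18, adjusted p = 3.3e-05). All these groups were well apart, although 10.5% of the exonic bases of Cyp2u1 lie in other genes, mainly 4930534D22Rik.

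Cyp27b1, the enzyme that makes the active form of vitamin D by 1-alpha hydroxylation, fell (chr10:127048250-127053006). It was at 1.09, 1.27 and 0.799 FPKM with sulfasalazine, against 9.67, 10.2 and 7.22 FPKM in controls (log2 fold change -2.28, SE 0.18, adjusted p = 2.3e-05). Cyp24a1, which breaks the active vitamin down, had at most 4 reads in any library. Cyp4f17, 6.41 kb from Cyp4f16, was at 1.27 ± 0.281 FPKM with sulfasalazine and 1.92 ± 0.660 FPKM in controls and was not called (log2 fold change -0.35, SE 0.20, adjusted p = 0.15). Cyp20a1, an orphan P450, was at 15.6 ± 0.131 FPKM with sulfasalazine and 19.5 ± 2.17 FPKM in controls. Its groups did not overlap, but it missed the threshold (log2 fold change -0.30, SE 0.13, adjusted p = 0.081). Without control replicate 1 it passed as lower, at -0.39 (adjusted p = 0.039), and without control replicate 2 Cyp4f17 did so at -0.54 (adjusted p = 0.043).

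The other 23 P450 genes were too low to test, among them the xenobiotic-metabolising Cyp2 and Cyp3 enzymes of the liver. Cyp2c23, Cyp2c55, Cyp2d22, Cyp2d26, Cyp2f2, Cyp2j6, Cyp2s1 and Cyp3a13 stayed under 1 FPKM in every library, as did Cyp11a1, Cyp27a1, Cyp39a1, Cyp46a1, Cyp4a12b, Cyp4b1, Cyp4f14, Cyp4f18, Cyp4v3 and Cyp4x1. Cyp2ab1 was at 0.0842, 0.122 and 0.158 FPKM with sulfasalazine, against 1.40, 2.48 and 0.493 FPKM in controls. Of the retinoic acid hydroxylases, Cyp26b1 was at 0.429, 0.279 and 0.467 FPKM with sulfasalazine, against 1.26, 0.369 and 0.728 FPKM in controls, and its groups overlapped. Cyp26c1 was listed at 0 in every sulfasalazine library and at 0.172, 0.134 and 0.210 FPKM in controls. Cyp26a1 had at most 4 reads in any library.

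Flavin mono-oxygenases oxidise nitrogen and sulfur atoms of drugs. Fmo1, the 1 of 4 Fmo genes that was tested, was at 3.33, 2.64 and 2.53 FPKM with sulfasalazine, against 0, 0.0641 and 0.417 FPKM in controls (log2 fold change 1.74, SE 0.17, adjusted p = 7.0e-05). Fmo5 was at 1.18, 0.691 and 1.30 FPKM with sulfasalazine, against 0.0214, 0.0201 and 0.131 FPKM in controls, just short of the filter, and the authors' deposited table gives it a log2 fold change of 4.15 (adjusted p = 1.1e-11). Both were thus close to absent in untreated cells, and Fmo1 passed the filter through the sulfasalazine libraries alone, so it had to differ. Fmo2 and Fmo4, on either side of Fmo1, stayed under 1 FPKM.

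Ephx1, the microsomal epoxide hydrolase that turns epoxides into diols (chr1:180976210-181020904), was the second most abundant member with sulfasalazine. Its level was 1013, 1145 and 642 FPKM in the sulfasalazine libraries, against 187, 122 and 161 FPKM in the controls. The lowest sulfasalazine library was still well above the highest control. The log2 fold change was 2.55 (SE 0.24, adjusted p = 5.2e-05), a 5.96-fold higher mean, and leaving out 1 library at a time gave log2 fold changes of 2.38 to 2.80. Ephx2, the soluble form, had at most 2 reads in any library. Ephx3 was at 0.338, 0.391 and 0.481 FPKM with sulfasalazine and 0.299, 0.328 and 0.305 FPKM in controls, and Ephx4 was listed at 0 in every sulfasalazine library. The carboxylesterases Ces1a, Ces1g, Ces2b, Ces2e, Ces2f and Ces2g, which split ester drugs, summed to 0.777, 0.930 and 0.422 FPKM with sulfasalazine and 0.742, 0.859 and 0.188 FPKM in controls. None of these 6 was tested, and their summed levels overlapped.

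Among the conjugating enzymes, Ugt1a7c, a glucuronosyltransferase, was higher (chr1:88095062-88220002). It was at 51.8, 49.9 and 35.2 FPKM with sulfasalazine, against 6.32, 9.69 and 7.36 FPKM in controls (log2 fold change 2.41, SE 0.20, adjusted p = 3.2e-05). The groups were far apart. Ugt1a genes share their last exons, and 54.6% of the exonic bases of Ugt1a7c lie in other genes, mainly Ugt1a6a, so which Ugt1a gene the reads came from is uncertain. Ugt1a6a was at 0.552, 0.575 and 0.548 FPKM with sulfasalazine, against 0.117, 0.0441 and 0.115 FPKM in controls, and Ugt1a1, Ugt1a2, Ugt1a6b and Ugt2b34 also stayed under 1 FPKM.

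Sult2b1, which sulfates cholesterol and related sterols, fell (chr7:45729983-45784669). It was at 4.70, 4.64 and 4.44 FPKM with sulfasalazine, against 21, 21.3 and 23.5 FPKM in controls (log2 fold change -2.04, SE 0.14, adjusted p = 1.2e-05). Both groups were tight and far apart, although 8.13% of its exonic bases lie in Lmtk3. Sult1a1, the main phenol sulfotransferase, was at 0.165, 0.0895 and 0.0464 FPKM with sulfasalazine and listed at 0 in every control. Sult6b1 also stayed under 1 FPKM. Expressed conjugation genes were thus few, with 1 glucuronosyltransferase higher and 1 sulfotransferase lower.

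The alcohol dehydrogenases gave no member called higher. Adh7, the class IV enzyme that oxidises retinol and ethanol (chr3:138217760-138233382), fell to 1.35, 0.901 and 1.66 FPKM with sulfasalazine, against 9.87, 12.2 and 7.65 FPKM in controls (log2 fold change -2.24, SE 0.21, adjusted p = 4.9e-05). Adh5, the formaldehyde-clearing enzyme that also acts on S-nitrosoglutathione, averaged 67.5 ± 2.76 FPKM with sulfasalazine and 65.7 ± 8.68 FPKM in controls and was not called (log2 fold change 0.04, SE 0.12, adjusted p = 0.76). Adh1, between them on chromosome 3, was near 0 in both groups. The alcohol dehydrogenase with the highest level in both groups was therefore not called.

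**Figure D5:**
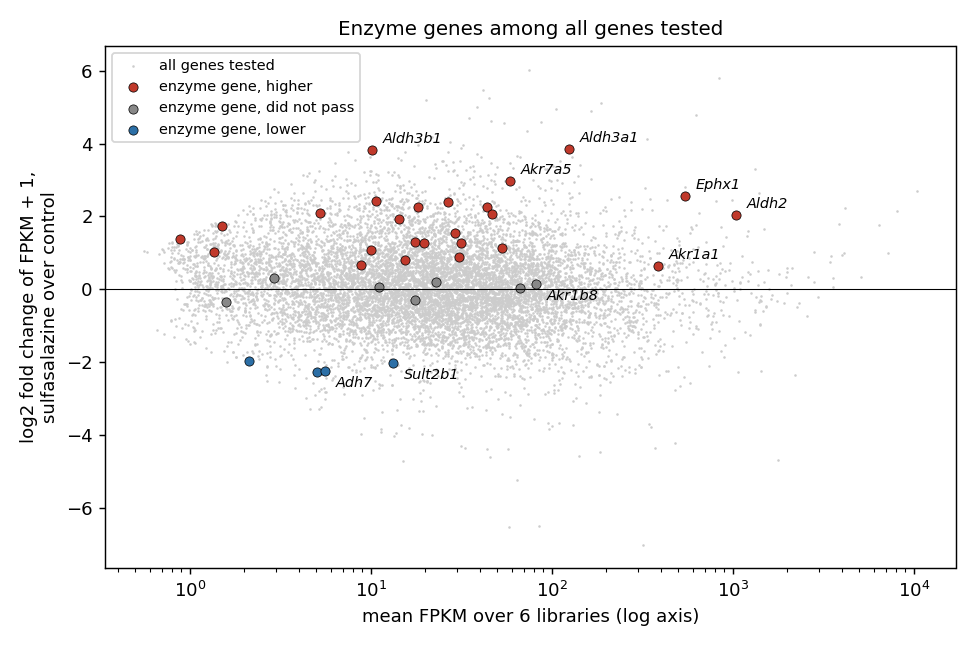
Log2 fold change, sulfasalazine over control, against mean FPKM over the 6 libraries on a log axis, for all tested genes (small grey points) and the tested members (large points, coloured by call). Aldh2 and Ephx1 lie farthest right among the members, and the lower calls Akr1b7, Cyp27b1, Adh7 and Sult2b1 lie at log2 fold changes of -1.98 to -2.28.

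The 4 members called lower had log2 fold changes of -1.98 to -2.28, and the highest control mean among them was 22.0 ± 1.38 FPKM (Sult2b1). The 25 called higher ran from low genes such as Cbr3 to Aldh2. Spread between libraries, as the median coefficient of variation of those 25, was 11% with sulfasalazine and 27.8% in controls. All 25 were lower in controls, so the 11% and 27.8% were taken at unlike levels. The control spread was widest for Cbr3 (173%) and Fmo1 (140%), which were near 0 FPKM there. Sulfasalazine replicate 3 was the lowest of its group for 15 of the 25 and the highest for 7. Control replicate 3 was the lowest control for 5 (Aldh3a1, Akr1c12, Akr1c13, Nqo2 and Cyp4f13) and the highest for 13. Aldh3a1, Nqo2 and Cyp4f13 had replicate 3 lowest in both groups.

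Of the 89 members, 53 were below the filter, and 49 of these were under 1 FPKM in every library. Of the 53, 4 were listed at 0 in all sulfasalazine libraries, 13 at 0 in all controls, and 15 had reads in all 6 libraries. At an adjusted p under 0.05 the authors' deposited table calls 10 of them higher and 5 lower. It does so for 15.3% and 9.85% of all genes below the filter. In the authors' deposited table those higher are Akr1c14, Nqo1, Cyp2j6, Cyp39a1, Fmo4, Fmo5, Ugt1a6a, Ugt1a6b, Ugt2b34 and Sult1a1, and those lower are Cyp26b1, Cyp26c1, Cyp2ab1, Cyp2c23 and Cyp3a13. In the authors' deposited table the log2 fold changes were 3.06 for Ugt2b34 (adjusted p = 6.2e-07) and -3.67 for Cyp2ab1 (adjusted p = 1.4e-07). Few reads lie behind these calls.

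Genes that serve these enzymes were counted from lists of pathway partners. Beside each list stand all tested genes, of which 37.2% were called higher and 29.3% lower. Of 9 tested electron partners of the P450s, 5 were higher and 2 lower (median log2 fold change 0.62, against 0.08 over all tested genes). Cyb5a, the cytochrome b5 that passes electrons to several P450s, was at 319 ± 21.3 FPKM with sulfasalazine and 9.71 ± 0.817 FPKM in controls (log2 fold change 4.90, SE 0.11, adjusted p = 6.1e-07). Fdxr, which feeds the mitochondrial P450s, was at 27.4 ± 2.51 FPKM with sulfasalazine and 6.64 ± 2.26 FPKM in controls (log2 fold change 1.93, adjusted p = 1.1e-04). Cyb5r1, a cytochrome b5 reductase, was at 90.3 ± 23.0 FPKM with sulfasalazine and 420 ± 51.0 FPKM in controls (log2 fold change -2.22, adjusted p = 2.7e-05). Por, the main P450 reductase, was singled out after its values were seen and was the other gene called lower. It was at 512 ± 25.1 FPKM with sulfasalazine and 1001 ± 123 FPKM in controls (log2 fold change -0.96, adjusted p = 3.2e-04). The partners of the P450s thus did not move one way.

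Among all tested genes 37.2% were called higher and 29.3% lower. The genes that supply conjugation cofactors numbered 7 tested, with 5 higher, 0 lower and a median log2 fold change of 0.87. Of the 5, Ugdh, which makes UDP-glucuronic acid, lost its call under median-of-ratios and quantile scaling and without sulfasalazine replicate 1 or 2 or control replicate 2. Papss1, which makes the sulfate donor, was at 49.4 ± 2.95 FPKM with sulfasalazine and 10.6 ± 3.70 FPKM in controls (log2 fold change 2.16, adjusted p = 6.1e-05). Slc35b2, which carries that donor into the Golgi, had a log2 fold change of 1.59 (adjusted p = 1.5e-04), and Slc35d1, a carrier of UDP-sugars, 1.17 (adjusted p = 5.3e-04). All 7 tested genes of a list of sulfatases, sulfatase-modifying factors and a glucuronidase were higher, with a median log2 fold change of 1.34. They were Arsa, Arsb, Arsg, Arsk, Sumf1, Sumf2 and Gusb, and whether they act on drug conjugates was not tested. Arsg, a lysosomal sulfatase, was at 6.14 ± 0.444 FPKM with sulfasalazine and 0.441 ± 0.0804 FPKM in controls (log2 fold change 2.31, adjusted p = 8.6e-06). Gusb, the lysosomal beta-glucuronidase, had a log2 fold change of 1.61 and Sumf1, which activates sulfatases, 1.37 (both adjusted p = 1.1e-04).

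Of 14 tested short-chain dehydrogenases of carbonyls and retinoids, 9 were higher and 2 lower, against 37.2% and 29.3% of all tested genes. Their median log2 fold change was 1.26. Dhrs3, a retinaldehyde reductase, was at 89.2 ± 12.2 FPKM with sulfasalazine and 2.80 ± 1.28 FPKM in controls (log2 fold change 4.62, SE 0.27, adjusted p = 8.0e-06). Rdh10, a retinol dehydrogenase, was at 82.4 ± 14.8 FPKM with sulfasalazine and 15.9 ± 1.40 FPKM in controls (log2 fold change 2.29, adjusted p = 1.3e-05), and Dhrs7 had a log2 fold change of 2.08 (adjusted p = 3.2e-05). The 2 called lower were Rdh5 (log2 fold change -0.82, adjusted p = 0.0025) and Rdh13 (-0.56, adjusted p = 0.0099). The Rdh13 call was lost without sulfasalazine replicate 1 (adjusted p = 0.0503). Retinoid enzymes therefore differed in direction, with Dhrs3 and Rdh10 higher and Rdh5, Rdh13 and Adh7 lower. Of 2 tested genes of the retinoid binding and receptor list both were lower, Rarg at 195 ± 2.69 FPKM with sulfasalazine and 481 ± 87.7 FPKM in controls (log2 fold change -1.29, adjusted p = 1.0e-04) and Rara by -0.32 (adjusted p = 0.019). The Rara call was lost without sulfasalazine replicate 2 or 3 and with the replicate block (adjusted p = 0.060).

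Of 10 tested other drug-metabolising enzymes, 7 were higher and 1 was lower, against 37.2% and 29.3% of all tested genes. Their median log2 fold change was 0.89. Aox1, an aldehyde oxidase, was at 10.2 ± 0.627 FPKM with sulfasalazine and 0.190 ± 0.0308 FPKM in controls (log2 fold change 3.23, adjusted p = 3.4e-06). Esd, an esterase of formaldehyde clearance, was at 585 ± 52.0 FPKM with sulfasalazine and 131 ± 38.7 FPKM in controls (log2 fold change 2.18, adjusted p = 3.9e-05), and Ptgr1, a reductase of lipid-derived enals, had a log2 fold change of 2.11 (adjusted p = 2.1e-05). Xdh, xanthine dehydrogenase, was the 1 called lower, at 92.6 ± 20.2 FPKM with sulfasalazine and 280.5 ± 45.9 FPKM in controls (log2 fold change -1.60, adjusted p = 1.7e-04).

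Xenobiotic receptors and their partners gave 3 higher and 4 lower of 8 tested, with a median log2 fold change of -0.53. The share called higher was near the 37.2% of all tested genes, of which 29.3% were called lower. Keap1, which holds Nrf2 in check, was at 42.1 ± 1.73 FPKM with sulfasalazine and 14.3 ± 1.19 FPKM in controls (log2 fold change 1.5, adjusted p = 2.5e-05). Nfe2l2, which encodes Nrf2, was at 141 ± 17.3 FPKM with sulfasalazine and 326 ± 46.2 FPKM in controls (log2 fold change -1.20, adjusted p = 1.7e-04), and Nfe2l1 had a log2 fold change of -0.77 (adjusted p = 0.0012). The calls of Rxra and Rxrb, partner receptors of many nuclear receptors, were lost without sulfasalazine replicate 1, 2 or 3, without control replicate 2 and with median-of-ratios scaling, which left 1 of the 8 higher, and with that scaling 5 were lower. The Rxrb call was also lost with the replicate block (adjusted p = 0.064), without the intensity trend, without the filter, with a pseudocount of 0.1 and without control replicate 1, which left 2 higher. Shared sequence was not examined for these partner genes.

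Markers of other cell types were summed in each library. Hepatocyte markers, 4 of 10 in the table, summed to 2.23 to 4.0 FPKM with sulfasalazine and 0.802 to 1.82 FPKM in controls, and 1 was tested. It was Apoa2, which was higher, at 2.82 ± 0.775 FPKM with sulfasalazine and 1.00 ± 0.441 FPKM in controls (log2 fold change 0.93, adjusted p = 0.0049, and 0.050 with quantile normalization, which misses the threshold), whereas Hnf4a was near 0. Corneal and stratified epithelial markers, 4 of 8 in the table, summed to 0.0759 to 0.174 FPKM with sulfasalazine and 0.128 to 0.234 FPKM in controls. Enterocyte markers, 5 of 8 in the table, summed to 10.4 to 12.4 FPKM with sulfasalazine and 7.41 to 12.9 FPKM in controls, almost all of it Cdx2, which was not called. Macrophage markers, 4 of 6 in the table, summed to 75.5 to 83.4 FPKM with sulfasalazine and 45.7 to 73.8 FPKM in controls. Cd14 was higher, at 55.8 ± 2.97 FPKM with sulfasalazine and 17.5 ± 3.60 FPKM in controls, and Cd68 was lower, at 22.0 ± 5.70 FPKM with sulfasalazine and 42.6 ± 12.5 FPKM in controls, while Csf1r and Lyz2 were near 0. Osteoblast markers, 7 of 12 in the table and nearly all Spp1, summed to 870 to 1078 FPKM with sulfasalazine and 1540 to 2099 FPKM in controls. The part of these cell types in the enzyme levels was not tested beyond these values.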

How the data were processed

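RNA of 3 sulfasalazine and 3 control libraries was sequenced as paired-end NovaSeq reads, per the labels' protocols, using a plant-tissue RNA extraction kit and a bacterial rRNA depletion kit. All 6 share a batch label. The submitters' processing notes name edgeR, HTSeq 0.13.5, HISAT2 2.2.1 and fastp 0.23.0 as tools and mm39 as build, without their roles. The authors deposited an FPKM value and a library-size-adjusted signal per library, and their own log2 fold change and p-value per gene, per the file headers. Starts and ends equal those of GENCODE M21 (GRCm38) for 13861 of 13994 matched genes and for all 89 members, so coordinates are GRCm38 although the notes name mm39.

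Whole reads were recovered from steps in the FPKM values: 100% of the values above 0 lay within 1e-05 reads of a whole multiple, and 654 genes had more than 1 possible set. Over genes, the chi-square per degree of freedom of the closest pair of libraries (sulfasalazine replicates 1 and 2) was 5.81, above counting noise. None was treated as a repeat deposit of another, which does not show that they were separate cultures. Groups and replicate numbers came from the titles.

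Genes reaching 1 FPKM in 3 or more libraries were compared as log2(FPKM + 1), which understates changes of low genes, with limma 3.58.1 in R 4.3.3 (lmFit, eBayes with trend, two-sided, Benjamini-Hochberg adjustment over all 10338 genes, threshold 0.05), and the script was tested on simulated data. The members and lists were chosen with earlier results of these data known. Every tested member is named, with each library's value where it was called and a group mean reached 5 FPKM, and up to 3 called genes per list with the largest change and that level. Sequence shared between genes was read from GENCODE M21 as exonic bases inside another gene and as shared 50-base words. Promoter windows came from RefSeq, GRCm38.p6. Whether counting used strand is not given. Alternatives were other pseudocounts, filters, scalings and thresholds, no trend, voom on recovered reads, a replicate block and each library left out. Tables and figures were made with pandas 2.3.3, numpy 2.4.6 and matplotlib 3.10.9 (Python 3.11.15).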

Additional observations from a re-analysis of the deposited data

How the results depend on the processing

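The 25 members higher and 4 lower held with a pseudocount of 0.1, with no trend and with voom on the recovered reads. Other settings gave 22 to 27 higher and 3 to 6 lower, apart from the minimum change, under which 21 were higher, and no filter. Without the filter, 33 of 89 members were higher and 9 lower, where 30.5% of all 14003 genes were higher and 22.4% lower. A minimum absolute log2 fold change of 1 left 3430 of all genes called, against 6878. Replicate numbers did not pair the libraries: deviations of same-numbered libraries correlated at 0.04, -0.19 and -0.17, and 0 of the 3 sulfasalazine libraries correlated best with their own number. With the replicate block 25 members were higher and 4 lower, and 6420 genes were called. Median-of-ratios and quantile scaling moved the median of all genes by -0.12 and -0.11.

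Signs reversed only for uncalled members. Akr1e1, at 0.05, was -0.066 under median-of-ratios scaling, -0.13 under quantile normalization and -0.17 with replicate 3 of each group left out, and with 1 library left out it ranged from -0.14 (sulfasalazine replicate 3) to 0.23. Adh5, at 0.04, was -0.081 under median-of-ratios scaling and ranged from -0.029 (control replicate 2 left out) to 0.15. The cause was not tested. Changes of low members depend on the pseudocount: with 0.1, Cbr3 had 3.82, Fmo1 3.84 and Akr1b7 -3.58. Members under 1 FPKM rest on few reads, which limits the precision of their values.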

Other observations

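Related enzymes left out of the set by name also differed between groups. Cyp51, the lanosterol demethylase of cholesterol synthesis, was at 140 ± 34.3 FPKM with sulfasalazine and 16.6 ± 2.30 FPKM in controls (log2 fold change 2.99, SE 0.18, adjusted p = 9.6e-06, limma). Cyp1b1, an aryl hydrocarbon receptor target, was at 11.6 ± 3.31 FPKM with sulfasalazine and 1.85 ± 0.909 FPKM in controls (log2 fold change 2.15, SE 0.27, adjusted p = 2.3e-04). Cyp1a1 had 7, 4 and 4 reads with sulfasalazine and 0 in every control. Aldh1l2, of mitochondrial folate metabolism, was lower, at 2.23 ± 1.01 FPKM with sulfasalazine and 14.4 ± 4.27 FPKM in controls (log2 fold change -2.27, SE 0.28, adjusted p = 2.0e-04). Aldh18a1, of proline synthesis, was also lower, at 100.3 ± 20.3 FPKM with sulfasalazine and 301 ± 40.7 FPKM in controls (log2 fold change -1.58, SE 0.17, adjusted p = 9.1e-05). The 2 left-out Aldh genes thus differed in direction from the 9 called Aldh genes of the set.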
